A study of Mus with 15 samples.

Results

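The Sox genes encode transcription factors that share the HMG box, a DNA-binding domain first described in Sry. The 10 members described here were chosen by name out of 21883 protein-coding genes on chromosomes 1 to 19, X and Y, and were set in 3 lineage classes by their known roles. The neural class held Sox1, Sox2, Sox14 and Sox21, the endothelial class held Sox7, Sox17 and Sox18, and the glial class held Sox8, Sox9 and Sox10. For each gene, the peaks of monoubiquitinated histone H2A (H2AK119ub, written H2Aub) that touched the annotated gene body or the 5 kb on each side of it were collected from 11 peak lists of mouse thalamus. The measure was the length of this window under peaks, in bp or as a percent of the window. Coverage was ranked between genes as a percent, since the windows differ in length, and peak widths and differences between groups are given in bp.

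The mice were 2 to 4 months old, and hemizygous males per the methods of the study. WT mice carried the floxed Maged1 allele (Maged1 Loxp in the labels), and Maged1 cKO mice carried it with a Cre driven by the vGluT2 promoter, so that Maged1 was deleted in cells with vGluT2-Cre activity and not in every thalamic cell. Injections were intraperitoneal, with saline on the initial 3 days and either cocaine at 20 mg/kg or more saline on the next 5 days. The WT mice gave 3 libraries after cocaine and 3 after saline, the cKO mice 2 after cocaine and 3 after saline, and each library was made from pooled thalami (3 to 4 per the labels, while the methods state a lower minimum of 2). The lists gave peaks and no read counts. The study gives a minimum depth for all samples and not the depth of each library, so a longer list cannot be told apart from a deeper library. Whole thalamus mixes cell types, so fewer cells of a type and less mark per cell cannot be told apart either. No peak lay in the window of Maged1 in any of the 11 lists, and a list of H2Aub peaks does not check the deletion.

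H2Aub is placed by Polycomb repressive complex 1 (PRC1) and is best known at developmental regulators that are kept silent in a given cell type. Among the Sox factors, Sox1 and Sox2 (group B1) keep neural progenitors undifferentiated, while Sox14 and Sox21 (group B2) are repressors used during neuronal differentiation. Sox9 and Sox8 act in astrocyte and early glial development, Sox10 and Sox8 act in oligodendrocytes (group E), and Sox7, Sox17 and Sox18 (group F) direct endothelial development. A thalamus holds neurons, glia and vessels, and expression of these genes in its cells was not examined here.

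Before any comparison, the lists themselves differed. In 9 lists the number of peaks ran from 7271 to 26055, and the peaks covered 4.24 to 17.2 Mb. The cKO cocaine and cKO saline replicates numbered 1 stood apart, with 54653 and 80713 peaks, a narrower median width (198 to 206 bp against 242 to 429 bp) and 6877 to 7542 peaks with a q of at most 1e-10 (3 to 13 in the other 9). These libraries were kept, and results that rest on them are given with and without them.

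All 10 Sox genes had a peak in at least 9 of the 11 libraries, against 12.8% of the protein-coding genes. In all 11 libraries a peak was present at 7 of the 10 (Sox1, Sox14, Sox21, Sox7, Sox17, Sox18 and Sox9), against 6.76% of coding genes. Sox2 had a peak in 10 libraries, and Sox8 and Sox10 in 9 each. With only peaks at q of at most 0.01 this fell to 6 of 10 genes, with Sox8 left in 3 libraries, Sox2 and Sox10 in 5 each and Sox18 in 6, so the coverage of these 4 rested in part on weakly enriched peaks.

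**Figure D1:**
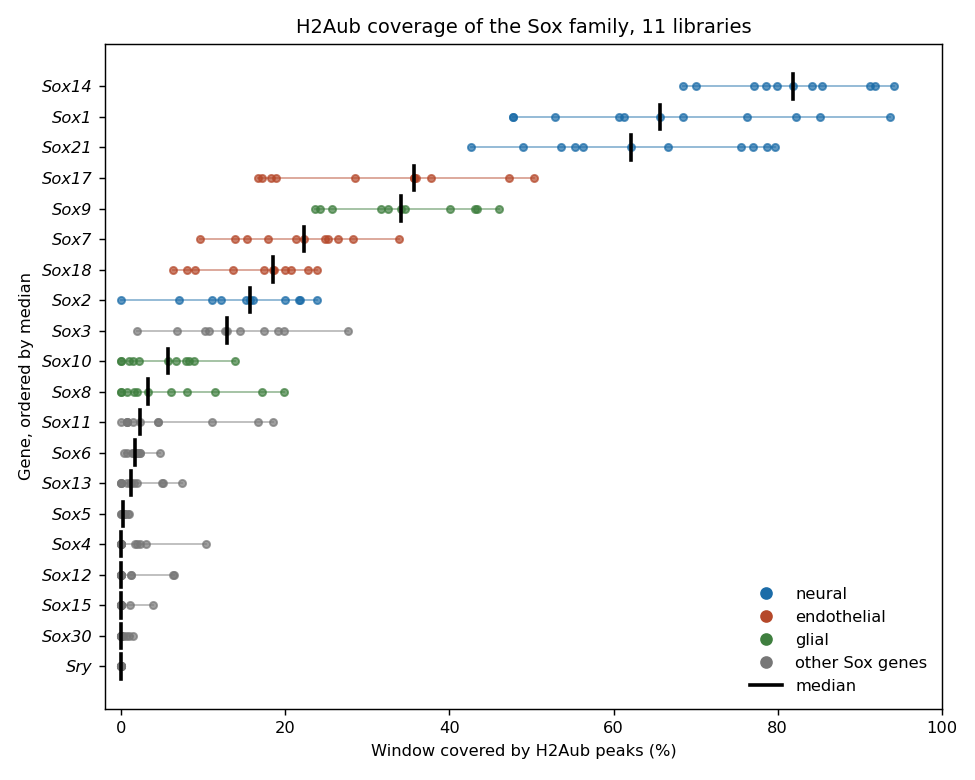
Percent of the gene window under H2Aub peaks (horizontal axis) for the 20 Sox genes examined, 1 point per library (11 libraries) and a black bar at the median. Sox14, Sox1 and Sox21 lie above every other Sox gene by median (81.9, 65.7 and 62.2%), and of the genes outside the 3 classes Sox3 is the highest (12.9%).

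By median percent of the window, the neural genes Sox14, Sox1 and Sox21 were the most covered of the family. In 10 of 11 libraries the widest peak at any of the 10 members was at Sox14, Sox1 or Sox21 (in cKO saline replicate 1 it was at Sox9, 5427 bp). Sox14, a repressor that marks a class of inhibitory neurons in and around the thalamus, lies on chromosome 9 at 99874106 to 99876170 (mm10, gene ID 20669). Its window was covered at a median of 81.9% (68.5 to 94.1%), which ranked it between 13 and 71 of all coding genes by covered percent in the 11 libraries. Covered length was 11356, 9883 and 11078 bp in the WT libraries after cocaine, 9646, 9308 and 10306 bp in those after saline, 10162 and 11007 bp in the cKO libraries after cocaine, and 8452, 9486 and 8261 bp in those after saline. The WT groups overlapped, and both cKO cocaine libraries were above the 3 cKO saline libraries. Peaks did not stop at the window: in all 11 libraries a peak ran past its lower-coordinate edge. The same 5234 bp of the Sox14 window were under peaks in every library.

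Sox1, a marker of neuroepithelial progenitors, lies on chromosome 8 at 12395519 to 12399555 (gene ID 20664), and its whole window lies inside the long noncoding gene Sox1ot. Covered length was 13144, 10711 and 9219 bp in the WT libraries after cocaine, 9606, 6704 and 11542 bp in those after saline, 7417 and 8598 bp in the cKO libraries after cocaine, and 8506, 11961 and 6700 bp in those after saline. The spread within each group of 3 was wide, and both cKO cocaine libraries were below the 3 WT cocaine libraries. The median was 65.7% of the window (47.7 to 93.6%), and each base of the window was under a peak in at least 1 library. A stretch of 4266 bp (12394582 to 12398847) that held most of the gene body was under peaks in at least 9 libraries throughout.

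Sox21, a factor that promotes exit from the progenitor state, lies on chromosome 14 at 118233233 to 118237030 (gene ID 223227), where its upper-coordinate end overlaps the noncoding gene Gm4675. Covered length was 10854, 10414 and 8577 bp in the WT libraries after cocaine, 9186, 7392 and 10617 bp in those after saline, 7633 and 10992 bp in the cKO libraries after cocaine, and 6757, 7772 and 5884 bp in those after saline. The 2 cKO cocaine libraries were far apart, and the lower of them fell inside the range of the cKO saline libraries. The highest peak width over the 11 libraries was 14704 bp at Sox21, 13224 bp at Sox14 and 12114 bp at Sox1. As at Sox14, a peak ran past the lower-coordinate edge of the Sox21 window in all 11 libraries.

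Sox2, the pluripotency and neural stem cell factor that adult astrocytes also express, differed from the other neural genes. It lies on chromosome 3 at 34649995 to 34652461 (gene ID 20674), inside the noncoding gene Sox2ot, and its window was covered at a median of 15.7% (0 to 23.8%). Covered length was 2967, 2490 and 2704 bp in the WT libraries after cocaine, 1955, 1893 and 2716 bp in those after saline, 1995 and 1376 bp in the cKO libraries after cocaine, and 1516, 874 and 0 bp in those after saline. The 3 cKO saline libraries were all below the 3 WT saline libraries. The gene body was covered at a mean of 46.7%, against 12.7% and 1.52% of the lower- and upper-coordinate flanks. Its covered length never exceeded 2967 bp.

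Among the endothelial genes, Sox17 was covered most. Sox17, needed for arterial identity, lies on chromosome 1 at 4490928 to 4497426 (gene ID 20671), and its window was covered at a median of 35.7% (16.6 to 50.3%). Covered length was 7793, 5928 and 5893 bp in the WT libraries after cocaine, 4697, 2744 and 8293 bp in those after saline, 3018 and 6220 bp in the cKO libraries after cocaine, and 2839, 5882 and 3121 bp in those after saline. The highest value of the 11 came from a WT saline library, in which a single peak of 8293 bp made up the whole covered length, and the groups overlapped within each treatment and within each genotype. A stretch of 989 bp inside the gene (4492733 to 4493721) was under a peak in all 11 libraries.

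Sox7, which acts with Sox17 and Sox18 in vessel formation, lies on chromosome 14 at 63943706 to 63950732 (gene ID 20680). Covered length was 5762, 4803 and 3038 bp in the WT libraries after cocaine, 3631, 4294 and 2353 bp in those after saline, 4494 and 4223 bp in the cKO libraries after cocaine, and 3801, 2611 and 1643 bp in those after saline. The cKO cocaine libraries were above the cKO saline libraries, while the WT groups overlapped. Its mark lay to 1 side: the lower-coordinate flank was covered at a mean of 51.7%, the gene body at 15.8% and the upper flank at 0%, since no peak touched it.

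Sox18, a regulator of lymphatic and blood vessel development, is the shortest of the 10 genes (1804 bp) and lies on chromosome 2 at 181669837 to 181671640 (gene ID 20672). Covered length was 2188, 2820 and 2438 bp in the WT libraries after cocaine, 2203, 1054 and 940 bp in those after saline, 2361 and 2051 bp in the cKO libraries after cocaine, and 2693, 751 and 1605 bp in those after saline. Each pair of groups compared overlapped, although the WT groups did so only through WT saline replicate 1. The body was covered at a mean of 62.7%, the highest share outside the 3 widely covered neural genes, and the upper-coordinate flank at 15.5%. In WT cocaine replicate 1 and in cKO saline replicates 2 and 3 the flank held more of the covered length than the body.

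The glial genes split. Sox9, which sets astrocyte fate and stays on in adult astrocytes, lies on chromosome 11 at 112782210 to 112787757 (gene ID 20682) and was covered at a median of 34.1% (23.6 to 46.0%), close to Sox17. Covered length was 6744, 7150 and 5301 bp in the WT libraries after cocaine, 4925, 3985 and 3775 bp in those after saline, 5379 and 6708 bp in the cKO libraries after cocaine, and 6224, 5056 and 3662 bp in those after saline. The WT cocaine libraries were all above the WT saline libraries. The widest peak at Sox9 was 6015, 5568 and 5178 bp in the 3 WT cocaine libraries, against 1586, 2583 and 1642 bp with saline, while the number of peaks was 2, 4 and 2 in WT cocaine and 7, 5 and 5 in WT saline. The WT cocaine lists thus held fewer and longer Sox9 peaks, and the WT saline lists more and shorter ones.

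Sox8 and Sox10 were the least covered members. Sox8, a partner of Sox9 and Sox10 in glia, lies on chromosome 17 at 25565893 to 25570686 (gene ID 20681), next to the noncoding gene Cerox1, which fills 4233 bp of its window. Covered length was 890, 1689 and 1190 bp in the WT libraries after cocaine, 0, 112 and 0 bp in those after saline, 2931 and 481 bp in the cKO libraries after cocaine, and 2530, 223 and 287 bp in those after saline. The 2 highest values belonged to the cKO replicates numbered 1, and 2 of the 3 WT saline libraries had no Sox8 peak. At most 6 libraries shared a base, 4205 to 4253 bp from the lower end of the body, and further peaks lay in the upper-coordinate flank, which was covered at a mean of 7.46% against 11.1% of the body.

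Sox10, the main driver of myelin genes in oligodendrocytes, lies on chromosome 15 at 79154913 to 79164490 (gene ID 20665), and its window takes in parts of Polr2f and of the noncoding gene Gm10863. Covered length was 1313, 1545 and 1127 bp in the WT libraries after cocaine, 1624, 174 and 0 bp in those after saline, 1747 and 416 bp in the cKO libraries after cocaine, and 2712, 0 and 287 bp in those after saline. The highest value was again in a cKO replicate numbered 1, and each pair of groups overlapped. The position shared most lay near the upper-coordinate end of the body, where 603 bp (79163332 to 79163934) were under peaks in 6 libraries. The body was covered at a mean of 7.93% and the upper flank at 4.45%, cKO cocaine replicate 2 had its whole 416 bp in that flank, and only 20.2% of the window was under a peak in any library. The gene table used gives no strand, so it is not stated here at which ends the genes start.

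**Figure D2:**
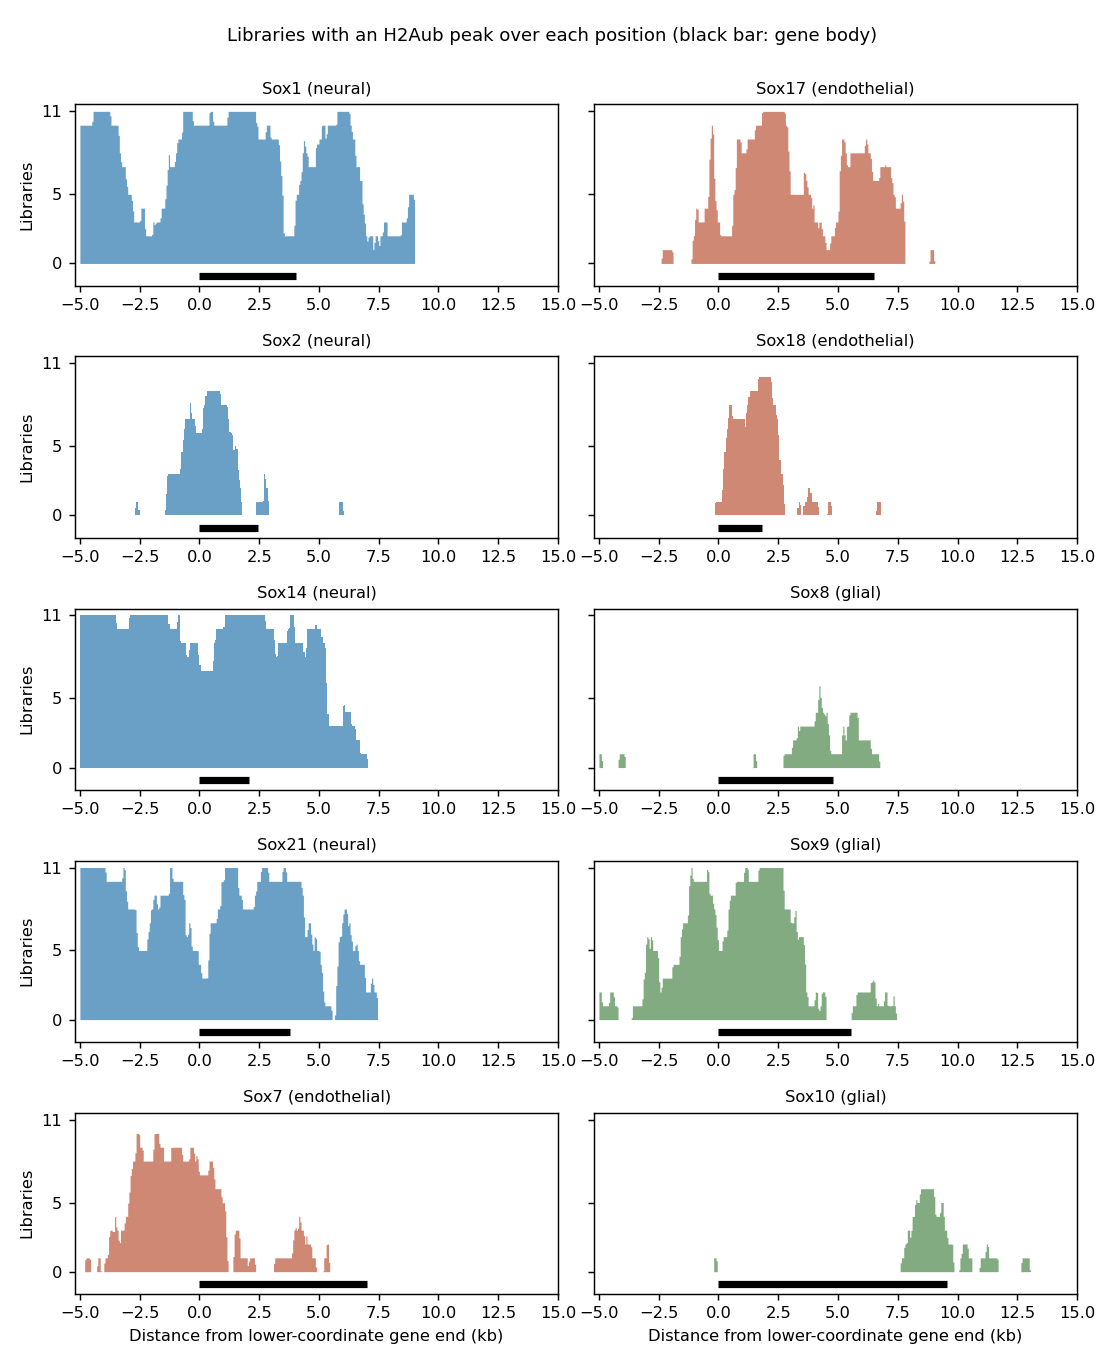
Number of libraries, of 11, with an H2Aub peak over each position (vertical axis, mean of 50 bp steps) against the distance from the lower-coordinate end of each of the 10 Sox genes in kb, with the gene body as a black bar. At Sox14, Sox1 and Sox21 the mark fills most of the window, at Sox2 it reaches from the body into the lower flank, at Sox18 from the body into the upper flank, at Sox7 it lies mainly over the lower flank, and at Sox8 and Sox10 no base is shared by more than 6 libraries.

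Ordered by median covered percent, the genes ran Sox14, Sox1, Sox21, Sox17, Sox9, Sox7, Sox18, Sox2, Sox10 and Sox8, from 81.9% to 3.25%. The ranges of each pair of neighbours in this order overlapped. Within libraries, Sox21 was above Sox17 and Sox9 above Sox7 in 11 of 11, and Sox14 was above Sox1 in 10. Sox17 and Sox9 could not be ordered, since Sox17 was the higher in 4 of 11 libraries, nor could Sox18 and Sox2 (6 of 11) or Sox10 and Sox8 (3 of 11, with a median that was higher all the same).

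By class, the mean covered percent was 56.9% ± 9.38 (SD, n = 11 libraries) for the neural genes, 23.0% ± 5.48 for the endothelial genes and 15.3% ± 5.55 for the glial genes. The neural mean exceeded the glial mean by 41.6 ± 10.1 percentage points and the endothelial mean by 33.9 ± 5.04 points, and did so in each of the 11 libraries. The order neural, endothelial, glial held in 10 of 11 libraries. In the remaining library, cKO saline replicate 1, the glial mean was 2.88 points above the endothelial mean. Without both cKO replicates numbered 1 the neural genes exceeded the glial genes by 44.8 points and the endothelial genes by 35.0 points. These are descriptions with no test, as the classes hold 3 or 4 genes each and were set with earlier results of these data known, and the classes were not uniform: without Sox2 the neural mean was 70.9%, while Sox9 alone stood far above Sox8 and Sox10. The mean over the 11175 coding genes with a peak in at least 2 libraries was 1.39 to 4.47% per library.

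**Figure D3:**
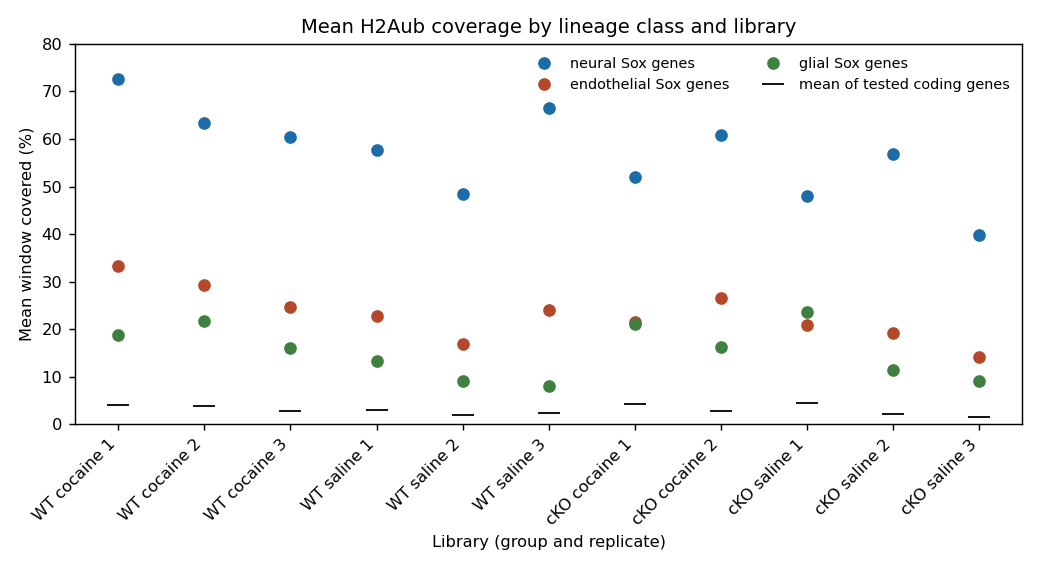
Mean percent of the window under H2Aub peaks (vertical axis) for the neural, endothelial and glial Sox genes in each of the 11 libraries (horizontal axis), with the mean of the 11175 tested coding genes as a dash. The neural mean is the highest of the 3 in every library, and the endothelial and glial means cross only in cKO saline replicate 1.

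Of the 10 other Sox genes examined, 4 had a peak in at least 9 libraries. These were Sox3 (11 libraries), the group B1 relative of Sox1 and Sox2, Sox6 (11), Sox5 (10) and Sox11 (10), with a median covered percent of 12.9, 1.68, 0.178 and 2.31%. Sry had no peak. The windows of Sox6 and Sox5 are long (579905 and 963863 bp), which lowers their percent. The median covered length at Sox6 was 9738 bp, against 9883 bp at Sox14, 9219 bp at Sox1 and 8577 bp at Sox21. Genes that mark the cells in which the Sox factors act had lower median percents than most members. Most of their windows are longer, up to 201863 bp at Tcf7l2, while the longest member window is 19578 bp (Sox10). In bp the highest marker median was 4675 at Lef1, above Sox7 (3801), and the next was 1699 at Kdr. Over 4 astrocyte markers (Aqp4, Gfap, Aldh1l1, Slc1a3) the highest median was 1.29%, over 4 endothelial markers (Cldn5, Pecam1, Cdh5, Kdr) 7.80%, and over 4 markers of thalamic neurons (Slc17a6, Tcf7l2, Lef1, Calb2) 3.77%. Lef1, at the last of these values, had a peak in all 11 libraries, its lower-coordinate flank was covered at a mean of 53.2%, and Cldn5 (7.80%) was above Sox8 and Sox10. Their mean per library ran from 0 to 4.56%, 0.134 to 9.08% and 0.394 to 3.77%, in that order. A peak list gives a chromatin mark and not expression, so these values do not check the dissected tissue.

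The study asked how cocaine and the loss of Maged1 change H2Aub in the thalamus. In WT mice, all 10 Sox genes had a higher mean covered length after cocaine than after saline, and the groups did not overlap at Sox8 and Sox9. At Sox9 the mean was 6398 ± 972 bp (SD, n = 3) after cocaine and 4228 ± 612 bp (n = 3) after saline, a difference of 2170 ± 663 bp (SE, exact permutation p = 0.10, two-sided). At Sox8 it was 1256 ± 404 bp against 37.3 ± 64.7 bp, a difference of 1219 ± 236 bp (exact permutation p = 0.10). With 3 libraries against 3, 0.10 is the smallest p possible. The differences of the other 8 genes ran from 532 bp at Sox2 to 1741 bp at Sox1, with overlapping groups and an exact permutation p of 0.20 to 0.60. With equal numbers of peaks Sox10 also did not overlap, as its 3 WT saline libraries then had no peak, so that 3 of 10 genes were free of overlap, against 5.90% of all tested genes and 20.7% of the genes with a peak in at least 9 libraries.

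With the lists as deposited, the count of 2 was not particular to the Sox genes. The WT groups did not overlap, with cocaine higher, at 11.4% of the 11175 tested genes and at 29.3% of the 2802 genes with a peak in at least 9 libraries, and 2 of 10 Sox genes lies between these shares. The opposite direction was found at 0.215 and 0.107% of genes and at no Sox gene. A higher mean after cocaine was seen at 55.2% of all tested genes and at 93.2% of the genes with a peak in at least 9 libraries. The WT cocaine lists were longer as a whole: they covered 14.2 ± 3.50 Mb against 8.35 ± 2.77 Mb in WT saline, a ratio of 1.70, while the summed length at the 10 Sox genes was 57.0 ± 6.23 kb against 45.2 ± 6.73 kb, a ratio of 1.26. With the 7271 strongest peaks of each list, all 10 means stayed higher after cocaine (34.0% of all tested genes and 76.5% of the genes with a peak in at least 9 libraries), and the difference was 2084 bp at Sox9 and 746 bp at Sox8. With peaks at q of at most 0.01, Sox9 still did not overlap (2503 bp), but Sox8 did (170 bp).

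In cKO mice, 9 of the 10 genes had a higher mean after cocaine, and Sox1 a lower one, while the mean was higher at 64.1% of the tested genes. Sox14 (10584 ± 598 bp, n = 2, against 8733 ± 659 bp, n = 3) and Sox7 (4358 ± 192 bp against 2685 ± 1081 bp) did not overlap, each with an exact permutation p of 0.20, where 0.10 is the smallest possible. Over all tested genes, 4.93% did not overlap with cocaine higher and 0.0984% with saline higher. For this comparison and those between genotypes, the share among genes with a peak in at least 9 libraries is not given with the lists as deposited. In WT mice that share was the larger one (29.3 against 11.4%), so all tested genes are an unlike background for the members. With equal numbers of peaks per list the direction turned at both genes, to -919 bp at Sox14 and -303 bp at Sox7, because cKO cocaine replicate 1 then had 0 bp at both genes. Without both cKO replicates numbered 1 the equal-peak differences were 2134 and 2162 bp. Without both replicates numbered 1, which leaves a single cocaine library, 9 of 10 genes lay above both saline libraries, as did 54.3% of the genes tested on these 9 libraries. Sox9 was 6044 ± 940 bp after cocaine and 4981 ± 1283 bp after saline in cKO mice (exact permutation p = 0.40), and Sox8 was 1706 ± 1732 bp and 1013 ± 1314 bp (exact permutation p = 0.50).

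**Figure D4:**
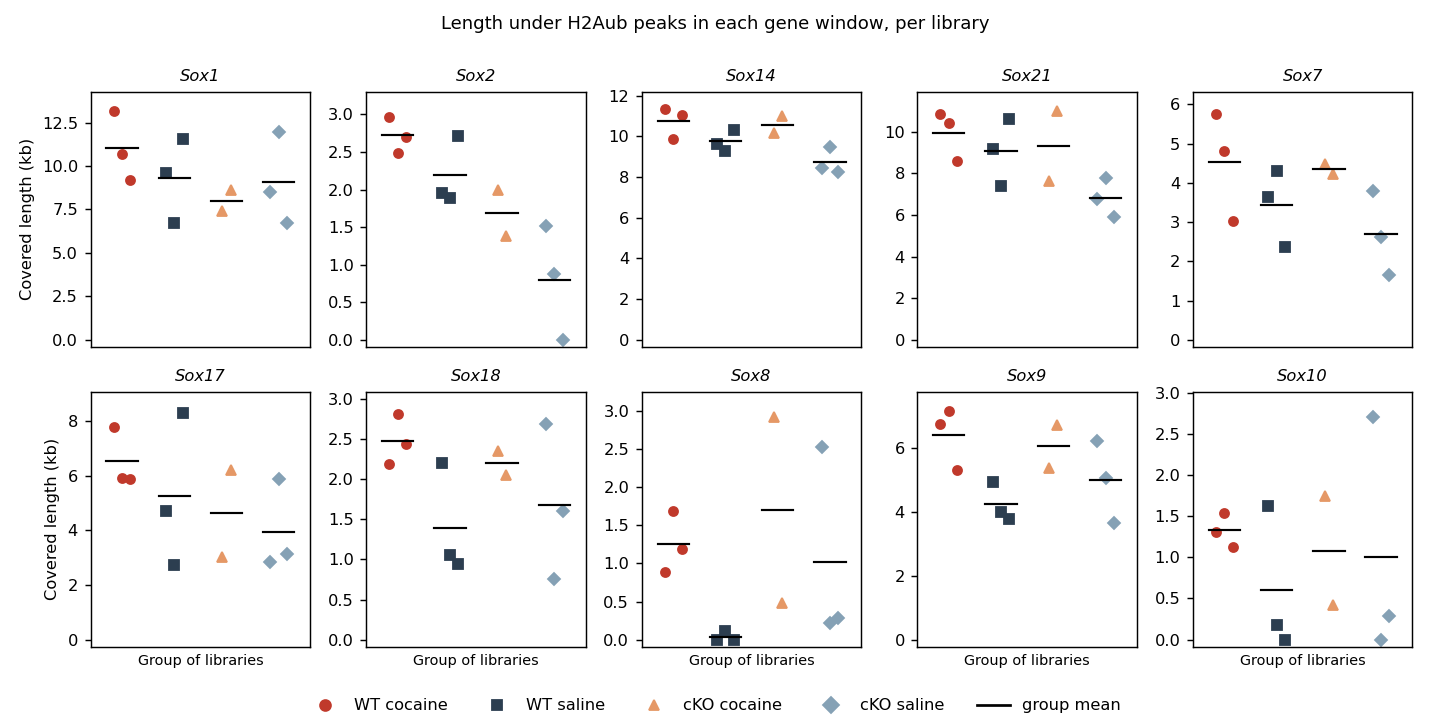
Length under H2Aub peaks in kb (vertical axis) at each of the 10 Sox genes, 1 point per library by group, with the group mean as a line. The treatments separate at Sox8 and Sox9 in WT and at Sox14 and Sox7 in cKO libraries, and the 3 cKO saline libraries lie below the WT saline libraries at Sox2.

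Cocaine was then tested against saline within genotype over all 11 libraries, with treatment permuted exactly among the libraries of each genotype (200 arrangements, smallest p 0.005, two-sided). The mean difference was positive at all 10 genes, as at 70.8% of the tested genes, and was 1696 bp at Sox21 (exact permutation p = 0.10), 1616 bp at Sox9 (exact permutation p = 0.035) and 1435 bp at Sox14 (exact permutation p = 0.02). The unadjusted p was under 0.05 at Sox9 and Sox14 only, against 4.99% of all genes. Both shares are over all tested genes, and those among genes with a peak in at least 9 libraries are not given for this test. In WT mice alone, 93.2% of such genes had a higher mean after cocaine. After Benjamini-Hochberg adjustment over the 11175 genes, no Sox gene passed 0.05 (adjusted exact permutation p = 0.730 at Sox14 and 0.838 at Sox9), nor did any other gene (0% of the genes). With a smallest p of 0.005, a gene could pass only if a large share of the genes reached that p together. Only 558 genes had an unadjusted p under 0.05, so the adjusted result does not show that no difference exists. As a share of each library's covered length the difference was negative at 8 of the 10 genes, Sox9 and Sox14 among them, and positive at Sox8 and Sox10, while 65.2% of all tested genes were positive on that scale. With equal numbers of peaks the exact permutation p was 0.41 at Sox9 and 0.98 at Sox14, where the cKO replicates numbered 1 had 0 bp at Sox9 and 0 and 1521 bp at Sox14. Without these libraries, an alternative chosen after the data were seen, the equal-peak difference was 2233 bp at Sox9 (exact permutation p = 0.017, the smallest possible there) and 1576 bp at Sox14 (exact permutation p = 0.05). A difference between genotypes in the response to cocaine was not detected at any of the 10 genes (exact permutation p = 0.30 to 0.80). Over all tested genes the unadjusted exact permutation p for it was under 0.05 at 0.224%, and the adjusted p at 0 genes. The WT response was the larger at 6 of the 10 Sox genes, and the share over all genes is not given.

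For genotype, the cKO saline and WT saline groups did not overlap at Sox2 and Sox8. Sox2 was lower in cKO saline, at 797 ± 761 bp against 2188 ± 458 bp (a difference of -1391 ± 513 bp, exact permutation p = 0.10, the smallest possible), and was lower still without cKO saline replicate 1, by -1751 bp. Sox8 was higher in cKO saline, at 1013 ± 1314 bp against 37.3 ± 64.7 bp (exact permutation p = 0.10), a difference of 976 bp that was 218 bp without cKO saline replicate 1. Over all tested genes, 0.644% did not overlap with cKO saline higher and 0.725% with it lower, but without both cKO replicates numbered 1 these shares were 1.28 and 10.6%. The mean was higher in cKO saline at 4 of the 10 Sox genes, the 3 glial genes and Sox18, and at 82.5% of the tested genes. Without the replicates numbered 1 it was higher at 3 (Sox8, Sox9 and Sox1) and at 21.2% of the tested genes, so Sox10 and Sox18 were higher through cKO saline replicate 1 alone. With equal numbers of peaks neither Sox2 nor Sox8 was free of overlap, but the means kept their direction. Sox2 was then 0, 572 and 0 bp in cKO saline against 0, 1893 and 2716 bp in WT saline. Sox8 was 0, 223 and 287 bp in cKO saline against 0 bp in each WT saline library.

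After cocaine, Sox2 and Sox1 were lower in cKO than in WT libraries without overlap. Sox2 was 1686 ± 438 bp (n = 2) against 2720 ± 239 bp (n = 3, exact permutation p = 0.10), and Sox1 was 8008 ± 835 bp against 11025 ± 1981 bp (exact permutation p = 0.20). The share of tested genes without overlap was 3.47% with cKO lower and 7.03% with cKO higher, and without both cKO replicates numbered 1, which leaves a single cKO cocaine library, it was 27.2 and 13.8%. The mean was lower in cKO at 9 of the 10 genes, all but Sox8, and higher at 71.6% of the tested genes. Without those replicates it was lower at 7 of the 10 genes, and higher at 28.6% of the tested genes, so the lower Sox values stood against a mostly higher background only with the replicates numbered 1 included. Sox2 and Sox1 stayed without overlap, with differences of -1344 and -2427 bp. With the lists as deposited, Sox2 was the single gene of the 10 at which cKO libraries lay below WT libraries under both treatments. With equal numbers of peaks the Sox2 groups overlapped under both treatments, as the WT replicates numbered 1 then had 0 bp. After cocaine the values were then 0 and 1091 bp in cKO against 0, 2490 and 2704 bp in WT libraries, and the cKO mean stayed lower. At q of at most 0.01 the Sox2 difference after cocaine was 473 bp in the other direction. The pairwise p-values were not adjusted over genes, and comparisons of 2 or 3 pooled samples measure the spread between pools.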

How the data were processed

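H2Aub was profiled by ChIPmentation, in which Tn5 adds the sequencing adapters to chromatin on the beads. As stated in the methods and the submitters' processing notes, the authors mapped trimmed reads to mm10 (Bowtie2 2.3.4.1) and used MACS2 (2.1.1.20160309.3) for broad peaks over total input, library by library. Each deposited list gave peak positions in bp, a score (10 times the −log10 q, decimals dropped), the fold enrichment over input as a ratio, and the −log10 p and −log10 q. The 4 input libraries were not analysed here. All deposited peaks were used, and the highest q in a list was 0.0997. Without read counts in the lists, the depth of each library is unknown and no counting interval can be given.

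Peaks were merged within a library and intersected (at least 1 bp) with gene windows from the RefSeq table of the GRCm38.p6 assembly, the same coordinates as mm10 (python 3.11.15, numpy 2.4.6, pandas 2.3.3). No sequence source was used. Pairwise comparisons gave whether groups overlapped and an exact permutation p. The test within genotype covered genes with a peak in at least 2 libraries, adjusted by Benjamini-Hochberg, and was checked on simulated data. Alternatives were q of at most 0.05 or 0.01, equal numbers of peaks, windows of 2 or 10 kb, a log2 scale with 100 bp added, the share of covered length, a replicate block and libraries left out. The members, the classes and the other lists were chosen with earlier results of these data known. All 10 members were named, and of the other Sox genes those with a peak in at least 9 libraries or in none. The values of a further list of marker genes are not reported here.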

Additional observations from a re-analysis of the deposited data

How the results depend on the processing

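No gene of any kind was called for cocaine within genotype under any alternative run. The smallest p possible was 0.005 to 0.0625, so this says nothing about stability. The class differences kept their sign under all alternatives run, with neural minus endothelial at 28.7 points for windows of 10 kb. The number of the 10 genes with a peak in at least 9 libraries was 6 at q of at most 0.01. Counts of genes whose groups did not overlap (2 in each comparison) moved most. For WT cocaine and saline the count was 1 at q of at most 0.01 and 3 with equal numbers of peaks (Sox10 in addition to Sox8 and Sox9). The equal-peak share was 5.90% of tested genes and 20.7% of the genes with a peak in at least 9 libraries. With a library left out the count was 2 to 5 (4 without WT saline replicate 1 and 5 without WT saline replicate 3). For cKO cocaine and saline it was 1 with windows of 2 or 10 kb, 0 with equal numbers of peaks, and 7 with cKO saline replicate 1 left out. For cKO and WT saline it was 1 with windows of 10 kb, 0 with equal peaks, 1 at q of at most 0.01, and 2 to 4 with a library left out (4 without WT saline replicate 2 or cKO saline replicate 2). For cKO and WT cocaine it was 1 with windows of 10 kb or q of at most 0.01, and 3 with equal peaks. These 3 were Sox8, Sox10 and Sox1, all lower in cKO, and Sox2 was no longer among them. The share lower in cKO was 6.77% of tested genes and 23.9% of the genes with a peak in at least 9 libraries. With equal peaks cKO cocaine replicate 1 had 0 bp at Sox8 and Sox10 and 3157 bp at Sox1. With WT cocaine replicate 3 left out the count was 4. Fewer libraries make groups without overlap easier to reach by construction. The share over all genes is not given with a library left out or with other windows or q limits. Those counts therefore do not say whether the Sox genes stand apart from other genes.

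The difference for cocaine within genotype turned negative at Sox1 with windows of 2 kb (-235 bp), with equal peaks (-117 bp) and with a library left out (-299 bp without WT saline replicate 2 to 1073 bp without cKO saline replicate 2, and also negative without WT cocaine replicate 1, -184 bp, or cKO saline replicate 3). As a share of each library's covered length (bp per covered Mb) it was -473 at Sox1, -445 at Sox14, -315 at Sox21, -173 at Sox17, -115 at Sox9, -68.1 at Sox7, -13.8 at Sox2 and -13.3 at Sox18. At q of at most 0.01 it was -260 bp at Sox8 and -205 bp at Sox2, and Sox2 in cKO against WT cocaine became 473 bp. Sox14 and Sox7 in cKO cocaine against saline became -919 and -303 bp with equal peaks. The cause was not tested.

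Replicate numbers are shared between groups. Deviations of same-numbered WT libraries correlated at 0.0602, 0.0193 and 0.0184 and of cKO libraries at 0.436 and 0.376, and 1 of 6 WT libraries correlated best with its own number, so the numbers were not taken as pairs. With a replicate block the count of called Sox genes was 0, the smallest p possible was 0.0625, and Sox1 was at -243 bp.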

Other observations

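The 10 other Sox genes were compared by the same measure. A peak in at least 2 libraries was present at 9 of them, and at none of the 9 were the groups free of overlap in any of the 4 comparisons. Their mean was higher after cocaine at 6 of 9 in WT and at 5 of 9 in cKO mice (55.2 and 64.1% of all tested genes). In cKO against WT libraries their mean was higher at 8 of 9 under either treatment, against 4 of 10 members after saline and 1 of 10 after cocaine. Over all tested genes it was higher at 82.5% after saline and at 71.6% after cocaine. The difference between the other Sox genes and the members was not tested. The higher cKO means at the other Sox genes rested on the cKO replicates numbered 1. Without both, 8 of these genes were left with a peak in at least 2 libraries. The cKO mean was then higher at 0 of 8 after saline and at 2 of 8 after cocaine.

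Peaks at some Sox genes were among the widest of their lists, while others were not. The widest peak at Sox1 in WT saline replicate 2 (9975 bp) ranked 16 of 8955 by width, and in cKO saline replicate 2 (12114 bp) it ranked 27 of 10809. In the cKO replicates numbered 1, where most peaks were narrow, the widest Sox9 peaks (4560 and 5427 bp) ranked 184 of 54653 and 81 of 80713. The highest fold enrichment over input at Sox1 was 10.4 in cKO saline replicate 1 and 7.87 in cKO cocaine replicate 1, and 3.97 to 5.49 in the other 9 libraries. The widest Sox8 peak in WT cocaine replicate 1 (509 bp) ranked 8702 of 21105.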
